A study of Mus musculus with 59 samples.

Results

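The direct contrast of 2 opposed activation states was examined in microglia that lack Tbk1. Cultured microglia with both floxed Tbk1 alleles and the Cx3CR1-Cre driver (KO) had been exposed for 24 h either to lipopolysaccharide (LPS, 100 ng/mL), a component of the outer membrane of Gram-negative bacteria, or to the cytokine interleukin-4 (IL-4, 20 ng/mL). The members were chosen by their sample titles, KO with LPS (5 libraries) and KO with IL-4 (5 libraries), which makes 10 of the 59 samples of the series. Untreated KO cultures (5 libraries) served as the background level. The same 2 states in cultures with floxed alleles but no Cre (WT, 5 and 5 libraries) and in cultures with 1 floxed and 1 normal allele plus Cre (HET, 5 and 5 libraries) were used to ask whether the distance between the states differed between genotypes. All cells were primary microglia of newborn mouse pups (P0/P1), plated for 16 h before the stimulus, and the 5 replicates of a group were described as independent cultures. WT cultures differ from KO in Cre as well as in Tbk1, whereas HET cultures share Cre with KO. The Cx3CR1 promoter is active in microglia and also in other cells of the monocyte and macrophage lineage, so that deletion is not limited to microglia where such cells are present.

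LPS is sensed by the receptor TLR4 with its partners CD14 and MD-2. From there 1 branch runs through MYD88 to NF-kB and the genes of cytokines, and another through TRIF to the kinases TBK1 and IKKε, which activate IRF3 and so the type I interferon genes and the interferon-stimulated genes. IL-4 acts through its own receptor, JAK kinases and the transcription factor STAT6, and is known in mouse macrophages and microglia for genes such as Arg1, Retnla, Chil3 and Mrc1, often called alternative activation genes.

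The promoters of 6 genes that hold letters known to be bound by the factors of these pathways are shown. They were picked because they hold them: 5 are among the 14 genes with the largest differences on either side, and Ifit1 is an interferon-stimulated gene outside those. They were taken from RefSeq (GRCm38.p6), are 100 bases long, read 5′ to 3′ on the strand of the gene (the plus strand for all 6), and lie before the annotated start. In Cxcl3 (chr5:90785983-90786082), Cxcl2 (chr5:90903757-90903856) and Il6 (chr5:30013014-30013113), which code for a pair of neutrophil chemokines and a cytokine, capitals mark a kB-type match (GGGA, 1 base of any kind, TTTCC), the form bound by NF-kB. In Ifit1 (chr19:34640740-34640839), an interferon-induced RNA-binding protein, capitals mark 2 cores of the interferon-stimulated response element (TTTC, 2 bases of any kind, TTTC), bound by interferon regulatory factors. In Retnla (chr16:48842419-48842518), a secreted protein, and Tmem26 (chr10:68723496-68723595), a membrane protein, capitals mark a STAT6-type match (TTC and GAA with 4 bases of any kind between them).
Cxcl3: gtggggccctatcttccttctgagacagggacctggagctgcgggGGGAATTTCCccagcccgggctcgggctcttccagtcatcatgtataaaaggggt
Cxcl2: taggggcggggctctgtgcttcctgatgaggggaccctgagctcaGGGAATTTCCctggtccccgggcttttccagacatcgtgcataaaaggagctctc
Il6: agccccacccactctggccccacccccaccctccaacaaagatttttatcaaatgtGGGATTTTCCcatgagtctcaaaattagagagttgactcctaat
Ifit1: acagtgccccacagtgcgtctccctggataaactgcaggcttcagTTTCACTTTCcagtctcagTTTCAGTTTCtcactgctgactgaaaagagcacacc
Retnla: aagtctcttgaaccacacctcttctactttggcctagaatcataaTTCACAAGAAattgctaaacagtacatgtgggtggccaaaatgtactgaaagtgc
Tmem26: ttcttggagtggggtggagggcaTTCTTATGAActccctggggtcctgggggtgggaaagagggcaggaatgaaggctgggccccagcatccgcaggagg
Both strands were searched over 250 bases before each start. The Tmem26 promoter held a second STAT6-type match, 41 to 32 bases before the start and outside the stretch shown. Matches of these kinds did not overlap each other in these 6 promoters. Over all 27025 genes with a promoter in the table, 0.41% held the kB-type letters, 3.46% the interferon response core and 6.76% the STAT6-type letters. Most genes at the ends of the contrast held none of the 3. Of the 14 with the largest differences toward LPS a promoter was read for 13, of which 3 held the kB-type letters, 1 (Saa3) the interferon response core, 1 (Lcn2) the STAT6-type letters and 8 none. Of the 14 toward IL-4 a promoter was read for 11, of which 2 held the STAT6-type letters and 9 none. A match describes letters and is not evidence of binding. Promoters with these letters were also counted among 399 genes at least 4-fold higher in LPS and 321 at least 4-fold higher in IL-4. The shares are not compared here, because a promoter was found for only 302 and 236 of these genes. That is under 80%, which makes such a comparison void.

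The deposited values are transcript abundances scaled per gene length to a fixed total (TPM), which carry no read depth; the depth of each library is therefore unknown. Between 12699 and 14202 genes reached 1 TPM in the 10 libraries. Fewer genes reached that level with LPS (12699 to 13542) than with IL-4 (13591 to 14202), and the 50 most abundant genes took 36.2 ± 1.27% of all TPM with LPS against 26.2 ± 2.15% with IL-4 (mean ± SD, n = 5 and 5; both exact two-sided permutation p = 0.00794, the smallest this design can give; p = 0.0132 after Benjamini-Hochberg adjustment over 10 such summaries). Mitochondrial transcripts took 3.92 ± 1.29% and 4.55 ± 0.93% (exact permutation p = 0.389, adjusted 0.389). Because TPM sum to the same total, a larger share for a few genes lowers all others, and values in a bulk sample cannot tell fewer cells of a type from less RNA per cell.

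Tbk1, the targeted kinase, was listed at 12.1, 19.4, 17.7, 25.8 and 15.2 TPM in the 5 LPS cultures of the KO and at 12.3, 23.6, 14.8, 16 and 11.1 TPM in the 5 IL-4 cultures. The 2 groups overlapped (difference 0.20 ± 0.14 on the log2(TPM + 1) scale, adjusted p = 0.2), although median-of-ratios scaling gave 0.67 with an adjusted p of 0.000174 and quantile normalization 0.59 with an adjusted p of 0.000236. In WT cultures the means were 90.9 ± 8.37 TPM with LPS and 44 ± 1.69 TPM with IL-4, and in HET cultures 60.5 ± 4.08 and 31 ± 2.53. KO levels were thus below those of the other genotypes in both states but not 0; the value sums all exons and does not show the floxed part alone. Cx3cr1, the gene whose promoter drives Cre, was at 78.3 ± 35.2 TPM with LPS, 292 ± 36.3 with IL-4 and 793 ± 66.5 untreated.

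Genes were called at an adjusted p below 0.05 (limma, moderated test on log2(TPM + 1), Benjamini-Hochberg over 15908 genes), and differences are given as LPS minus IL-4 ± SE. Of the genes tested, 1925 were higher in LPS (12.1%) and 8643 higher in IL-4 (54.3%). At least 2-fold differences numbered 872 higher in LPS (5.48%) and 2452 higher in IL-4 (15.4%). The median of all genes lay at -0.41. Scaling by median of ratios brought that median to -0.034 and the split to 4321 higher in LPS (27.2%) and 4109 higher in IL-4 (25.8%), and quantile normalization gave a median of -0.084 with 3484 and 4612. Directions below are those of TPM. List counts below are to be read against these shares of all genes, 12.1% higher in LPS and 54.3% higher in IL-4 with TPM. With median of ratios the shares are 27.2% and 25.8%. Where another scaling changed the call of a gene named for this contrast, it is stated beside the gene. List counts of this contrast under median-of-ratios scaling follow where they move. Those of the differences between genotypes are given with TPM alone. Against untreated KO cultures, 69.6% of genes were called for LPS and 8.41% for IL-4, the 2 comparisons sharing the untreated libraries.

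The genes with the largest differences toward LPS included secreted proteins, receptors and enzymes. The 14 at either end were picked among genes whose LPS and IL-4 cultures do not overlap. The separation of their cultures described below follows from that choice. Saa3, an acute phase serum amyloid protein, reached 99246, 70097, 80057, 36262 and 48954 TPM in LPS cultures 1 to 5 and 56.4, 39.8, 21.6, 15.9 and 63.4 TPM in the IL-4 cultures. No IL-4 culture came near the LPS range (10.79 ± 0.44, adjusted p = 3.75e-23); among LPS cultures, 4 and 5 were the lowest. Lcn2, which binds bacterial iron carriers, was at 1469, 1885, 2177, 2672 and 3413 TPM with LPS and 1.14, 0.146, 0.667, 0.695 and 0.593 TPM with IL-4 (10.43 ± 0.33, adjusted p = 8.17e-27). Among the LPS cultures, 5 was highest here and 1 lowest. Hp, which codes for the haemoglobin-binding haptoglobin, averaged 145 ± 50 TPM with LPS and 0.909 ± 0.251 with IL-4. Fth1, the ferritin heavy chain that stores iron, averaged 74411 ± 4922 TPM with LPS and 8716 ± 1600.1 with IL-4, so that this 1 gene made up a large part of the LPS libraries. Of 14 iron and acute phase genes tested, 10 were higher in LPS and 3 in IL-4 (median 1.66, against -0.41 over all genes; 11 and 2 under median-of-ratios scaling); the iron reductase Steap3 was among those higher in IL-4 (2.05 ± 0.492 against 13.4 ± 3.56 TPM).

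**Figure D1:**
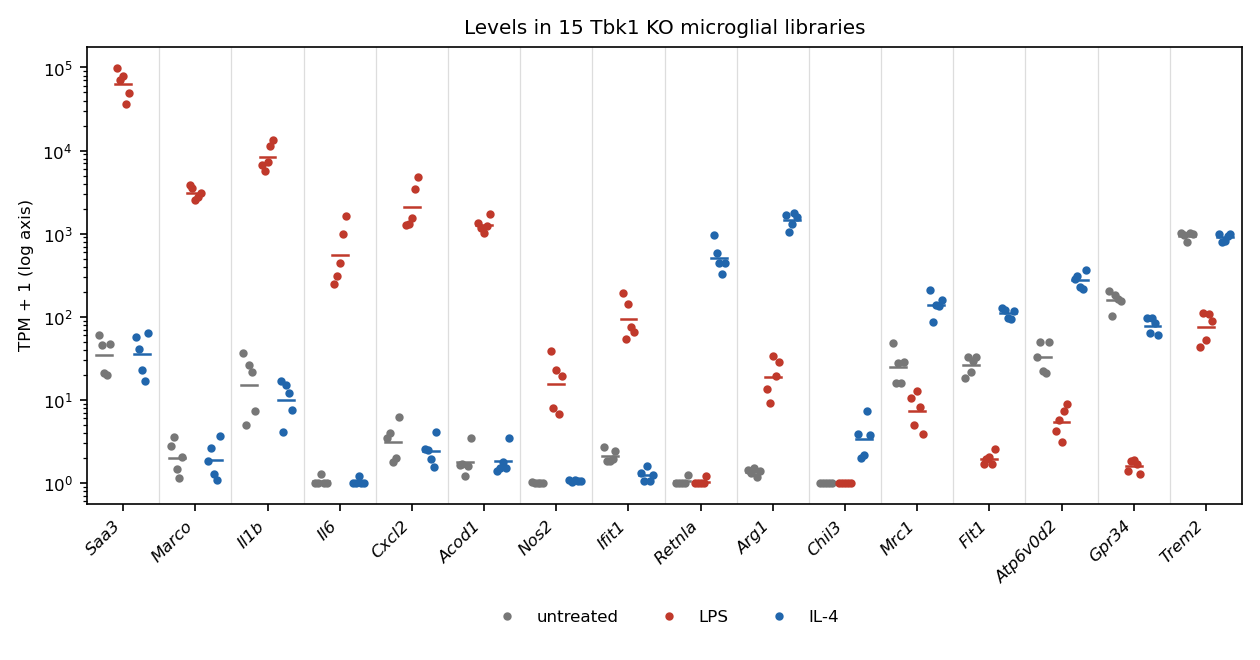
TPM + 1 on a log axis for 16 genes in the 5 untreated, 5 LPS and 5 IL-4 cultures of Tbk1 KO microglia. Points are libraries and bars geometric means. The 8 genes on the left stand high with LPS alone. Retnla, Arg1, Chil3, Mrc1, Flt1 and Atp6v0d2 are highest with IL-4, whereas Gpr34 and Trem2 are low with LPS and near or below the untreated level with IL-4.

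Among inflammatory cytokines, 15 of 18 tested were higher in LPS and 0 in IL-4 (median 3.04; 17 and 0 under median-of-ratios scaling). Il1b, the fever-inducing cytokine interleukin-1β, was at 6629, 5703, 7333, 11281 and 13397 TPM with LPS and 16, 3.05, 14.2, 11 and 6.49 TPM with IL-4 (9.73 ± 0.57, adjusted p = 6.7e-18). Il6 was at 245, 312, 437, 988 and 1653 TPM with LPS, while 4 of 5 IL-4 cultures were listed at 0 and the other at 0.212 TPM (9.07 ± 0.35, adjusted p = 9.66e-24). LPS cultures 4 and 5 stood above the other 3 for both genes, and also for Il1a, the alarmin interleukin-1α (969, 787, 1358, 3568 and 4543 TPM). Tnf, the tumour necrosis factor, averaged 285 ± 135 TPM with LPS and 4.88 ± 0.938 with IL-4 (5.50 ± 0.23).

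Of 15 chemokines typical of an LPS response, 12 were higher in LPS and 0 in IL-4 (median 2.45). Cxcl3 and Cxcl2, whose promoters are shown above with their kB-type letters, attract neutrophils. Cxcl3 was at 764, 1409.7, 1647, 3835 and 4208 TPM with LPS and 0, 0.335, 0, 0.219 and 1.27 TPM with IL-4 (10.56 ± 0.41), and Cxcl2 at 1257, 1299, 1525, 3484 and 4842 and 1.57, 1.51, 0.934, 0.546 and 3.13 TPM (9.78 ± 0.39). No IL-4 culture came near the LPS range in either. Ccl5, which attracts T cells and monocytes, showed another order, at 2895, 1059, 1073, 617 and 1539 TPM with LPS against a mean of 2.28 ± 2.1 with IL-4 (8.84 ± 0.43). Ccl7, a monocyte chemokine, did not pass the test (65.8, 3.12, 19.8, 4.26 and 8.12 TPM with LPS, 12.8, 11.8, 13.9, 6.68 and 19.6 TPM with IL-4, adjusted p = 0.833), its LPS values spreading from below to above those of IL-4.

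The receptors of this state included formyl peptide receptors, which sense bacterial peptides, and pattern recognition lectins. Fpr1 was at 726, 619.7, 727, 668 and 747 TPM with LPS and 0.264, 0.532, 0.163, 0.323 and 0.641 TPM with IL-4, and its LPS cultures differed little from one another (8.99 ± 0.22, adjusted p = 2.18e-30). Fpr2 averaged 449.8 ± 52.4 and 0.258 ± 0.183 TPM. Marco, a scavenger receptor for bacteria, was at 3896, 3535, 2555, 2739.8 and 3096 TPM with LPS and 0.854, 1.66, 0.287, 0.074 and 2.67 TPM with IL-4 (10.68 ± 0.33, adjusted p = 4.68e-27). Scavenger and lectin receptors as a list went both ways, with 8 of 19 higher in LPS and 9 in IL-4 (9 and 8 under median-of-ratios scaling). Over all genes these shares were 12.1% and 54.3% with TPM and 27.2% and 25.8% with median of ratios. How evenly the list divides against the background depends on the scaling, and nothing is read from its counts. Clec4e (Mincle) averaged 791 ± 98.6 and 2.58 ± 0.703 TPM and Clec4n (Dectin-2) 1212 ± 484 and 6.73 ± 2.93 TPM, whereas Clec7a, the β-glucan receptor Dectin-1, averaged 407 ± 286 with LPS and 1488 ± 168 with IL-4. Serpinb2, an inhibitor of plasminogen activators (736 ± 274 against 0.246 ± 0.147 TPM), and Csta2, a cysteine protease inhibitor (208, 352, 474, 1065 and 1751 TPM with LPS), were also among the leading genes, Csta2 being highest in cultures 4 and 5 as Il6 was.

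Components of the LPS sensing route moved unequally. Of 14 genes for TLR4 sensing and adaptors, 8 were higher in LPS and 5 in IL-4 (median 0.63; 8 and 0 under median-of-ratios scaling). Tlr2, the lipoprotein receptor, averaged 308 ± 48.4 TPM with LPS and 21 ± 2.16 with IL-4, and Cd14 averaged 1728 ± 439 and 129 ± 35.1. Both were also lower with IL-4 than untreated (-1.90 ± 0.16 and -1.62 ± 0.23). Irak3, an inhibitor of the MYD88 branch, ran from 183 to 203 TPM with LPS and from 4.54 to 6.56 TPM with IL-4. Tlr4 itself did not pass the test (18.3, 28.8, 39.9, 69.9 and 57.1 TPM with LPS, 35.4, 34.4, 33.2, 34.3 and 45.6 TPM with IL-4, adjusted p = 0.738), and Traf6, a ubiquitin ligase of the route, was lower with LPS (10.7 ± 2.2 against 16.7 ± 1.12 TPM), a call lost under median-of-ratios scaling (-0.17, adjusted p = 0.166) and quantile normalization (-0.19, adjusted p = 0.0817).

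Of 12 genes for TBK1, IKKε and their adaptors, 7 were higher in LPS and 1 in IL-4 (median 0.48; 10 and 1 under median-of-ratios scaling). Ikbke, which codes for IKKε, was at 154, 166, 155, 161 and 136 TPM with LPS and 19, 28.8, 13.2, 14 and 26.3 TPM with IL-4 (2.93 ± 0.21, adjusted p = 1.76e-15). Tank, an adaptor of both kinases, averaged 113 ± 11.9 and 42.2 ± 2.42 TPM. Irf7, the interferon regulatory factor that amplifies interferon production, was at 563, 98.4, 275, 117 and 103 TPM with LPS and 5.45, 2.63, 5.24, 3.35 and 3.24 with IL-4, culture 1 being far above the other LPS cultures (5.21 ± 0.30). Optn, an autophagy receptor that binds TBK1, was lower with LPS (6.42 ± 0.971 against 12.1 ± 1.79 TPM), a call lost after quantile normalization (-0.33, adjusted p = 0.0757).

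In the list of NF-kB subunits and feedback inhibitors, 12 of 14 were higher in LPS and 2 in IL-4 (median 1.76; 12 and 0 under median-of-ratios scaling). Nfkbiz, a nuclear co-regulator that acts on Il6 and Lcn2, was at 97.6, 88.9, 88.2, 72.8 and 95.8 TPM with LPS and 2.38, 2.99, 2.52, 2.46 and 2.93 with IL-4 (4.61 ± 0.11, adjusted p = 1.02e-30). Nfkbia, the inhibitor IκBα, averaged 340.5 ± 44.5 and 46.5 ± 3.61 TPM, and Tnip1, a partner of the ubiquitin editor A20, 177 ± 18.1 and 26.5 ± 2.84 TPM. The subunits Rela and Rel were the 2 members called higher in IL-4 (-0.30 and -0.45), and both turned to the other side of 0 without a call under median-of-ratios scaling (0.18 and 0.017). Neither was called after quantile normalization (adjusted p = 0.396 and 0.575), and the Rel difference was -0.28 without LPS culture 1.

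Interferon-stimulated genes were all higher in LPS, 41 of 41 tested under all 3 scalings. With TPM, 41 were at least 2-fold apart (median 3.59). Ifit1, whose 2 interferon response cores are shown above, was at 192, 53.6, 141, 73.5 and 64.7 TPM with LPS and 0.331, 0.047, 0.584, 0.058 and 0.246 TPM with IL-4 (6.25 ± 0.27, adjusted p = 2.88e-22). Rtp4, an antiviral regulator, was at 317, 163, 262, 176 and 156 TPM with LPS and 2.37, 1.12, 2.02, 1.99 and 0.847 TPM with IL-4 (6.32 ± 0.29). Zbp1, a sensor of Z-form nucleic acids, was at 418, 155, 311, 182 and 192 and 2.2, 2.15, 2.54, 1.82 and 1.77 TPM (6.25 ± 0.24). LPS culture 1 was highest for these 3 genes and culture 3 was next, and the summed TPM of the list ran from 2937 to 8835 among LPS cultures against 349 to 415 among IL-4 cultures and 369 to 439.6 untreated. All 19 genes of MHC class I presentation, which displays peptides to CD8 T cells, were likewise higher in LPS (median 1.28); the nonclassical gene H2-T22 averaged 175 ± 73.8 and 31.5 ± 3.85 TPM. H2-Q6 and H2-Q7 were called too (2.97 and 3.19) but are near-identical copies among which reads may be shared, and their separate values are uncertain.

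**Figure D2:**
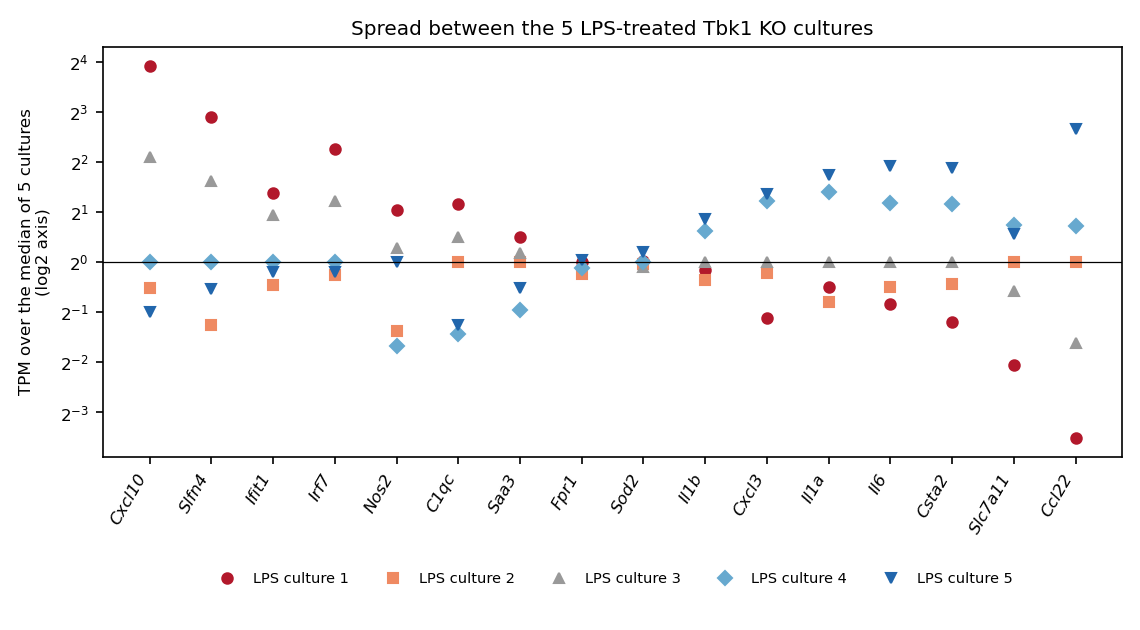
TPM of each LPS-treated KO culture over the median of the 5, on a log2 axis, for 16 genes chosen after their values were seen. Culture 1 is highest for Cxcl10, Slfn4, Ifit1, Irf7, Nos2, C1qc and Saa3 and lowest for Cxcl3, Il6, Csta2, Slc7a11 and Ccl22; Fpr1 and Sod2 hardly differ among the 5.

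Inflammasome and necroptosis genes gave 11 of 14 higher in LPS and 3 in IL-4 (11 and 1 under median-of-ratios scaling). Nlrp3, the inflammasome sensor, averaged 138 ± 40.2 and 10.3 ± 1.09 TPM and Mlkl, the executor of necroptosis, 23.1 ± 8.26 and 1.18 ± 0.173. Pycard, the adaptor ASC, was on the other side (31.9 ± 9.23 with LPS and 52 ± 8.94 with IL-4), without a call under median-of-ratios scaling (adjusted p = 0.445) or quantile normalization (adjusted p = 0.161).

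Enzymes of nitric oxide, itaconate and tetrahydrobiopterin gave 8 of 10 higher in LPS and 0 in IL-4 (median 3.04; 10 and 0 under median-of-ratios scaling). Acod1, which makes itaconate from a citric acid cycle intermediate, was at 1346, 1167, 1025, 1224 and 1747 TPM with LPS and 0.408, 0.532, 0.785, 0.5 and 2.44 TPM with IL-4 (9.46 ± 0.33, adjusted p = 1.6e-25). Nos2, the inducible nitric oxide synthase, was at 37.7, 7.03, 22.1, 5.71 and 18.3 TPM with LPS and 0.079, 0.027, 0.074, 0.064 and 0.055 TPM with IL-4 (3.88 ± 0.40, adjusted p = 8.31e-11). The groups did not overlap for either gene, but Nos2 stayed far below Acod1 in every LPS culture. Sod2, the mitochondrial superoxide dismutase, averaged 2360.2 ± 195 and 92.6 ± 6.01 TPM, and Ass1, which regenerates arginine, 223 ± 75.2 and 11.6 ± 4.36.

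Genes of the prostaglandin and leukotriene pathway lay on both sides. Ptgs2 and Ptges, the inducible enzymes of prostaglandin E2 synthesis, were at 123, 106, 193, 229.6 and 429.7 and 446, 351, 357, 409 and 442 TPM in the LPS cultures, against means of 2.34 ± 0.599 and 0.448 ± 0.377 TPM with IL-4. Ptgs1, the constitutive cyclooxygenase, was at 246, 228, 211, 179 and 161 TPM with IL-4 and averaged 15.7 ± 7.12 with LPS and 38.5 ± 7.31 untreated. Hpgd, which breaks prostaglandins down (11.9 ± 6.8 with LPS, 312 ± 13.5 with IL-4), and Ltc4s, the leukotriene C4 synthase (1.9 ± 1.55 and 33.6 ± 3.25), were on the IL-4 side as well. In the whole list 5 of 14 were higher in LPS and 6 in IL-4 (8 and 5 under median-of-ratios scaling). Over all genes these shares were 12.1% and 54.3% with TPM, and nothing is read from the counts.

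Glycolysis and lactate export genes were mostly higher in LPS, 17 of 20 with 2 in IL-4 (median 1.24; 17 and 0 under median-of-ratios scaling). Slc16a3, the lactate exporter MCT4, averaged 184 ± 35 and 20.7 ± 3.68 TPM, and Pfkfb3, which drives the committed step of glycolysis, 158 ± 52.3 and 33.8 ± 6.04. The phosphofructokinase subunits exchanged places, Pfkl being higher in LPS (123 ± 20.8 against 27.1 ± 4.4 TPM) and Pfkp in IL-4 (17.1 ± 2.9 against 30.1 ± 5.42 TPM), the latter without a call under median-of-ratios scaling (adjusted p = 0.291) or quantile normalization (adjusted p = 0.106).

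Oxidative stress genes that NRF2 controls gave 12 of 16 higher in LPS and 0 in IL-4 (median 1.63; 16 and 0 under median-of-ratios scaling). Slc7a11, the cystine importer, was at 67, 278, 187, 469 and 410.5 TPM with LPS, lowest in culture 1, and at 2.17, 3.45, 2.26, 2.78 and 3.52 TPM with IL-4. Gsr, the glutathione reductase, averaged 256 ± 40.6 and 29.5 ± 5.85 TPM, and the quinone reductase Nqo1 23.6 ± 10.3 and 1.67 ± 0.639. Stress response and chaperone genes of the endoplasmic reticulum gave 14 of 20 higher in LPS and 3 in IL-4 (17 and 2 under median-of-ratios scaling), with Herpud1 (55.1 ± 8.16 against 21.4 ± 1.82 TPM) and Xbp1 (171 ± 10.1 against 99.4 ± 6.02) on the LPS side and the transcription factor Atf3 (79.3 ± 17.5 against 324 ± 38.6) on the IL-4 side.

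Matrix proteases gave 11 of 16 higher in LPS and 4 in IL-4. Mmp9, a gelatinase, was at 569, 363, 669, 639 and 506 TPM with LPS and 3.63, 3.1, 1.01, 0.481 and 5 TPM with IL-4 (7.39 ± 0.41). Mmp8 and Mmp14, a collagenase and a membrane-bound protease, averaged 136 ± 54.5 and 491 ± 60.2 TPM with LPS and 2.59 ± 1.18 and 21.2 ± 6.17 with IL-4. Plau, the urokinase, and Timp2, a protease inhibitor, lay on the other side, at 14.2 ± 4.67 and 63.8 ± 10.9 TPM with LPS and 309.5 ± 60.8 and 589 ± 65.3 with IL-4. Complement and Fc receptor genes were also called in both directions, 9 of 19 higher in LPS and 7 in IL-4 (10 and 7 under median-of-ratios scaling). The shares over all genes were 12.1% and 54.3% with TPM. Factors of the alternative pathway, Cfb (338 ± 46.8 against 0.392 ± 0.22 TPM), C3 (436 ± 82.8 against 29.9 ± 6.96) and Cfp (989.5 ± 197 against 82.1 ± 23.3), were higher in LPS. The C1q chains of the classical pathway were higher in IL-4: C1qc was at 3545, 3081, 3083, 3120.1 and 3466 TPM there and at 1206, 542, 768, 202 and 229 TPM with LPS, where cultures 4 and 5 were lowest, and C1qb averaged 2666 ± 175 and 816 ± 512 TPM.

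The IL-4 state was led by Retnla and Arg1. Retnla, whose STAT6-type letters are shown above, was at 963, 577, 444, 328 and 447 TPM with IL-4, while 4 of 5 LPS cultures were listed at 0 and the other at 0.218 TPM (-8.95 ± 0.24, adjusted p = 8.97e-29). Arg1, the arginase that competes with nitric oxide synthase for arginine, was at 1687, 1056, 1312, 1785 and 1602 TPM with IL-4 and 12.4, 8.27, 32.6, 18.4 and 27.4 TPM with LPS (-6.29 ± 0.35, adjusted p = 1.19e-18). Its LPS values lay below those of IL-4 in every culture but above the untreated ones (0.193 to 0.522 TPM). Chil3, a chitinase-like protein, was at 2.85, 0.973, 1.17, 6.37 and 2.81 TPM with IL-4 and listed at 0 in all LPS and untreated cultures (adjusted p = 7.53e-09). Mrc1, the mannose receptor, was at 208, 85.5, 137, 134 and 159 TPM with IL-4 and 9.53, 3.98, 11.9, 7.29 and 2.88 TPM with LPS (-4.25 ± 0.29). Of 18 alternative activation genes tested, 16 were higher in IL-4 and 1 in LPS (median -1.77; 15 and 1 under median-of-ratios scaling). The exception was Ch25h, which makes 25-hydroxycholesterol (303 ± 113 TPM with LPS, 33.1 ± 9.68 with IL-4).

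For LPS and IL-4 cultures of the same number, the LPS minus IL-4 difference was 10.76, 10.75, 11.79, 11.06 and 9.57 for Saa3, 7.95, 8.29, 8.50, 9.95 and 10.69 for Il6, -9.91, -9.17, -8.80, -8.36 and -8.52 for Retnla and -6.98, -6.83, -5.29, -6.53 and -5.82 for Arg1, in the order of the numbers 1 to 5. Each gene kept its direction in all 5 numbers, which its non-overlapping groups fix in advance for any pairing. The labels do not say that a shared number marks a shared litter or day.

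Other leading genes of the IL-4 state had various roles. Tmem26, a membrane protein, was at 77.1, 66.7, 50.5, 51 and 65.7 TPM with IL-4 and averaged 0.385 ± 0.15 with LPS and 0.378 ± 0.11 untreated (-5.50 ± 0.17). Postn, the matrix protein periostin, was at 87, 35, 55.7, 38.3 and 26.1 TPM with IL-4 and averaged 0.558 ± 0.701 with LPS and 1.12 ± 1.17 untreated. IL-4 minus untreated was 5.50 ± 0.17 and 4.55 ± 0.26 for these genes, and LPS minus untreated, which did not pass the test, 0.004 ± 0.17 and -0.41 ± 0.26 (adjusted p = 0.986 and 0.169). Gatm, which makes the precursor of creatine from arginine (31 ± 8.86 with LPS, 905 ± 157 with IL-4, 124 ± 17.7 untreated), Flt1, a VEGF receptor (0.978 ± 0.352, 109.7 ± 15.4 and 25.9 ± 6.63), Atp6v0d2, a proton pump subunit (4.87 ± 2.31, 280.1 ± 63 and 34.2 ± 14.6), and Matk, a kinase that restrains Src family kinases (0.483 ± 0.216, 41.1 ± 8.43 and 6.51 ± 1.58), were raised over untreated cultures with IL-4 and below them with LPS.

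A further group of leading genes was low with LPS. Gpr34, Cxcr4, Rasgrp3 and Slco2b1 were lower with LPS than untreated, with IL-4 levels near or below the untreated ones. Gpr34, a microglial lysophospholipid receptor, was at 0.389, 0.824, 0.913, 0.695 and 0.281 TPM with LPS and 96.7, 61.9, 94.6, 82.2 and 58.7 TPM with IL-4 (-5.61 ± 0.17), and untreated cultures were higher than both, at 161 ± 38.8 TPM. Cxcr4, the CXCL12 receptor (3.06 ± 1.69 with LPS, 152 ± 18.7 with IL-4, 196 ± 28 untreated), Rasgrp3, a Ras activator (3.33 ± 1.44, 153 ± 17.5 and 162 ± 34.9), and the transporter Slco2b1 (0.116 ± 0.17, 35.6 ± 11.8 and 45.6 ± 15.7) had IL-4 levels that did not pass the test against untreated ones (adjusted p = 0.397, 0.909 and 0.454). Fcrls, an Fc receptor-like gene of microglia, was at 889.7, 883, 823, 935 and 888 TPM with IL-4 and 44.6, 45.8, 41.2, 18 and 18.3 TPM with LPS. Gpr183, the oxysterol receptor, averaged 51.5 ± 7.45 and 0.84 ± 0.353 TPM and was modestly higher with IL-4 than untreated (0.58 ± 0.13).

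Homeostatic microglia genes as a list showed 19 of 22 higher in IL-4 and 1 in LPS (median -1.56; 17 and 2 under median-of-ratios scaling). Trem2, a lipid receptor of microglia, was at 992, 783, 818, 944 and 980.1 TPM with IL-4 and 42, 109.9, 52.2, 108 and 88.6 TPM with LPS (-3.57 ± 0.25, adjusted p = 1.78e-15). P2ry13, an ADP receptor, was the member higher in LPS (17.1 ± 7.56 against 8.4 ± 1.1 TPM), with overlapping groups and 27.8 ± 2.6 TPM untreated. Of 31 genes that mark disease-associated microglia, 22 were higher in IL-4 and 7 in LPS, and of 20 growth and repair factors 12 and 4 (21 and 8, and 11 and 5, under median-of-ratios scaling). Over all genes 54.3% were higher in IL-4 with TPM. The 12 growth and repair factors lie near that share, and nothing is read from this count. Igf1, the insulin-like growth factor (1151 ± 151 with IL-4, 97.1 ± 30.4 with LPS), Gas6, a ligand of phagocytic receptors (273 ± 46.9 and 22.7 ± 2.34), and Spp1, osteopontin (8393 ± 2642 and 939.6 ± 297), were on the IL-4 side. Thbs1 (10.1 ± 6.5 and 476 ± 178) and Tgfbi (105 ± 27.8 and 357 ± 125), a pair of matrix proteins, were on the LPS side.

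The genes of the IL-4 route itself were called in both directions. Il4ra, the receptor chain that binds IL-4, was at 93.3, 81.4, 97.7, 79.9 and 84 TPM with LPS and 31.4, 25.3, 28.7, 26.7 and 23.3 TPM with IL-4 (1.65 ± 0.099, adjusted p = 1.07e-17), so that every LPS culture exceeded every IL-4 culture. The other receptor chains Il2rg (247 ± 22.4 against 31.4 ± 7.04 TPM) and Il13ra1 (37.1 ± 9.6 against 7.65 ± 1.12 TPM) were also higher in LPS. Stat6 averaged 77.4 ± 4.49 and 73.8 ± 7.54 TPM and did not pass the test (adjusted p = 0.45), although median-of-ratios scaling called it higher in LPS (0.56, adjusted p = 0.000302), as did quantile normalization (0.25, adjusted p = 0.0486). Downstream, Pparg, a lipid-sensing receptor, was at 24, 23.7, 21.3, 14.5 and 28.7 TPM with IL-4 and 0.155, 0.141, 0.142, 0.398 and 0.168 TPM with LPS (-4.26 ± 0.22). Egr2 and Myc, transcription factors that IL-4 is known to raise, averaged 69.9 ± 17.6 and 99.4 ± 22.9 TPM with IL-4 and 13 ± 10 and 21.9 ± 7.71 with LPS. The list of 17 genes held 6 higher in LPS and 9 in IL-4 (8 and 8 under median-of-ratios scaling). The 9 lie near the 54.3% of all genes higher in IL-4 with TPM, and nothing is read from them. Feedback genes of the SOCS and DUSP families gave 6 of 12 higher in LPS and 4 in IL-4 (7 and 4 under median-of-ratios scaling): Socs3 averaged 343 ± 63.8 with LPS and 7.44 ± 1.11 with IL-4, and Socs2 and Dusp4 averaged 8.73 ± 6.09 and 9.97 ± 6.15 against 23 ± 2.42 and 42.8 ± 10. Zfp36, which destabilises cytokine messengers, was higher in IL-4 (34 ± 11.2 against 108 ± 12.8 TPM).

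Chemokines known as IL-4 products gave 3 of 8 tested higher in LPS and 3 in IL-4, against 12.1% and 54.3% of all genes with TPM. Only 8 were tested, and nothing is read from these counts. Ccl22 was at 2.65, 30.3, 9.91, 49.8 and 191 TPM with LPS and 3.22, 4.23, 1.61, 0.498 and 8.38 TPM with IL-4 (2.77 ± 0.61, adjusted p = 0.000154). Ccl17, which shares the receptor CCR4 with it, was at 0.572, 5.6, 1.74, 12 and 62 TPM with LPS and 0, 0, 0.289, 0 and 2.25 TPM with IL-4 (2.49 ± 0.55, adjusted p = 0.000148). Both overlapped between groups, and LPS culture 5 was highest and culture 1 lowest in each. Cxcl13, a B cell chemokine, was at 122, 9.78, 36.8, 1.46 and 1.44 TPM with LPS, with culture 1 highest. Ccl24 (26.9 ± 9.57 TPM with IL-4, 2.51 ± 1.49 with LPS), an eosinophil chemokine, and Ccl6 (118 ± 43.9 and 24.5 ± 11.5) were higher in IL-4.

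Antigen presentation by MHC class II, which serves CD4 T cells, gave 9 of 12 genes higher in IL-4 and 2 in LPS (median -1.29; 8 and 2 under median-of-ratios scaling). The class II gene H2-Aa was at 12, 21, 12.3, 4.23 and 8.57 TPM with IL-4 and 0.296, 4.39, 0.401, 0.077 and 0.387 TPM with LPS, and its partner H2-Ab1 was at 17.2, 30.2, 14.1, 6.48 and 12 TPM with IL-4 and 18.7, 85.7, 31, 48.7 and 92.9 TPM with LPS. These 2 chains form 1 molecule, and H2-Ab1 was called higher in LPS (adjusted p = 0.000756) and H2-Aa higher in IL-4 (adjusted p = 1.02e-08), with overlapping groups in both. The invariant chain gene Cd74 averaged 469 ± 185 TPM with IL-4, 66.1 ± 30.9 with LPS and 10.3 ± 4.18 untreated, and the peptide-loading gene H2-DMa 44.8 ± 7.87, 6.56 ± 1.25 and 13.1 ± 3.04. Costimulatory and checkpoint ligands were called in both directions, 6 of 12 higher in LPS and 5 in IL-4 (6 and 4 under median-of-ratios scaling), against 12.1% and 54.3% of all genes with TPM. Pdcd1lg2, which codes for PD-L2, averaged 12.2 ± 2.88 TPM with IL-4 and 0.229 ± 0.102 with LPS. Cd83 (289 ± 54.1 and 17.2 ± 11.6) and Havcr2, TIM-3 (73.7 ± 9.48 and 7.49 ± 4.07), lay on the same side, while Icosl, the ICOS ligand, averaged 1.83 ± 0.312 with IL-4 and 42.2 ± 13.1 with LPS. Cd86, often used as an LPS marker, was at 19.2, 15.7, 24.5, 31.1 and 22.2 TPM with LPS and 30.6, 19.8, 27, 25.8 and 20.4 TPM with IL-4 (adjusted p = 0.429), values that overlapped throughout.

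Lysosome and proton pump genes were higher in IL-4 in 27 of 35 and in LPS in 4 (median -1.05; 20 and 8 under median-of-ratios scaling). The summed TPM of the list was 42328 to 55408 with IL-4 and 17064 to 20535 with LPS. Lgmn, the protease legumain (1962 ± 113 and 289 ± 116), had a large difference, whereas Neu1 (42.6 ± 5.23 and 55.9 ± 4.22), a sialidase, and Ctsz (1373 ± 158 and 1765 ± 192), a cathepsin, were modestly higher in LPS. Lipid handling genes gave 18 of 21 higher in IL-4 and 1 in LPS (12 and 3 under median-of-ratios scaling). Fabp4, a fatty acid carrier, was at 87.6, 109, 74.2, 77.6 and 213 TPM with IL-4 and 9.54, 5.15, 2.04, 0.534 and 5.33 TPM with LPS, and Gpnmb, a glycoprotein of lipid-laden macrophages, averaged 1846 ± 480.2 and 226 ± 72.1. Abca1, the cholesterol exporter, was the one higher in LPS (218 ± 61.6 against 77.6 ± 12.3).

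**Figure D3:**
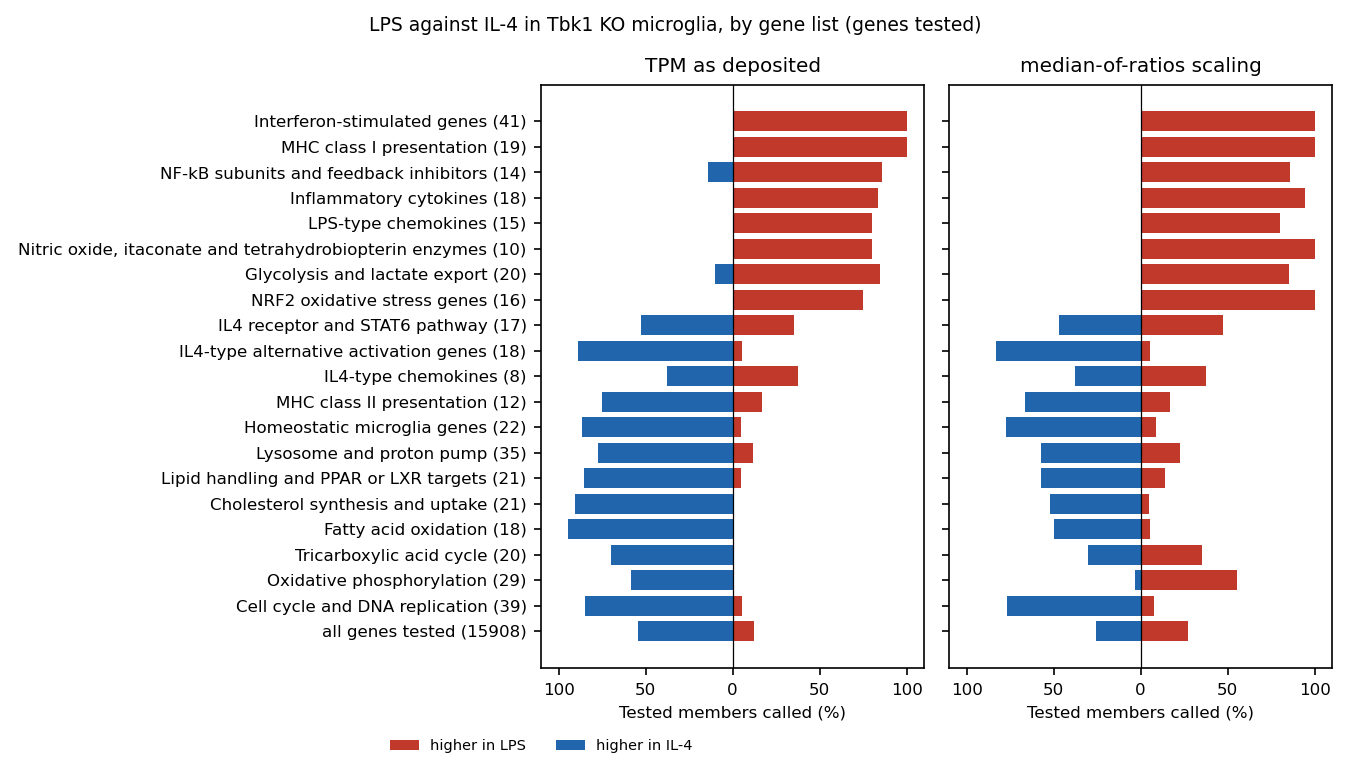
Percent of the tested members of 20 gene lists, and of all genes, called higher in LPS (right, red) or higher in IL-4 (left, blue), from TPM as deposited and after median-of-ratios scaling. Lists of the LPS response keep their side. Oxidative phosphorylation moves from 17 members on the IL-4 side to 16 on the LPS side.

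Metabolic lists depended on the scaling. Fatty acid oxidation genes were higher in IL-4 in 17 of 18 and in LPS in 0 with TPM, and in 9 and 1 with median-of-ratios scaling. Acaa2 and Hadh, enzymes of the mitochondrial spiral, averaged 36.2 ± 1.57 and 44.6 ± 3.3 TPM with IL-4 and 10.8 ± 1.89 and 18.8 ± 3.85 with LPS, and Cpt1a, which admits fatty acids into mitochondria, averaged 58.5 ± 4.66 and 23.7 ± 6.91. These 3 were called under both scalings (-1.21, -0.75 and -0.83 with median of ratios). For oxidative phosphorylation, 17 of 29 were higher in IL-4 and 0 in LPS with TPM, but 1 and 16 with median of ratios, and for the citric acid cycle 14 and 0 of 20 became 6 and 7. Quantile normalization left 14 and 2 for oxidative phosphorylation and 13 and 2 for the citric acid cycle, on the IL-4 side as with TPM. No direction is given for either list. Within them Mdh1, the cytosolic malate dehydrogenase, was lower with LPS under both scalings (-0.98 and -0.49), and Sdha, a succinate dehydrogenase subunit, with TPM (-0.64) but without a call with median of ratios (-0.15, adjusted p = 0.101). Cholesterol synthesis and uptake genes were higher in IL-4 in 19 of 21 and in LPS in 0 (11 and 1 with median of ratios), among them Dhcr7 (67.3 ± 8.47 and 21.2 ± 5.37) and Hmgcs1 (288 ± 80.2 and 112 ± 37.5). Polyamine and arginase enzymes gave 8 of 12 higher in IL-4 and 1 in LPS (4 and 3 with median of ratios), against 54.3% and 12.1% of all genes with TPM. Nothing is read from these counts. Arg2, the mitochondrial arginase, was higher in LPS (28.9 ± 10.7 against 5.59 ± 2.72), opposite to Arg1. Sat1, which breaks polyamines down, was higher in IL-4 (807 ± 56.4 against 125 ± 15.4).

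Cell cycle and DNA replication genes were higher in IL-4 in 33 of 39 and in LPS in 2 (median -1.76; 30 and 3 with median of ratios). Ccnd1, cyclin D1, was at 121, 119, 99.7, 67.1 and 144 TPM with IL-4 and 17.4, 18.3, 19.1, 7.1 and 6.94 TPM with LPS (-2.99 ± 0.29). Rrm2, a subunit of ribonucleotide reductase, and Cenpa, the centromeric histone, averaged 26.7 ± 6.91 and 34.2 ± 4.4 TPM with IL-4 and 3.9 ± 1.25 and 5.33 ± 2.34 with LPS. IL-4 minus untreated did not pass the test for any of the 3 (adjusted p = 0.49, 0.435 and 0.714), which does not show that the levels were equal. Cdkn2b, an inhibitor of the cycle, was higher in LPS (5.71, 13, 8.46, 23.3 and 21.4 against 4.45, 3.69, 4.29, 3.86 and 4.88 TPM).

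The distance between the 2 states differed between genotypes for many genes. Against WT, the LPS minus IL-4 difference of the KO was above that of WT for 1250 genes (7.86%) and below it for 1243 (7.81%). With Cre in both, against HET, it was above for 885 (5.56%) and below for 932 (5.86%). Of 41 interferon-stimulated genes, 34 were below against WT (median -1.55, against 0.056 over all genes) and 31 below against HET, with 0 and 0 above. This list was higher in LPS than in IL-4 in the KO while its distance was smaller than in the other genotypes. MHC class I genes were below in 17 of 19 against WT and 15 against HET, inflammatory cytokines in 12 and 12 of 18, LPS-type chemokines in 9 and 9 of 15, and NF-kB feedback genes in 9 and 6 of 14. Above were 14 and 10 of 21 cholesterol genes, 10 and 10 of 22 homeostatic genes, and 7 and 5 of 16 NRF2 genes. Alternative activation genes were above in 5 and 4 of 18 and below in 2 and 2.

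The 8 genes with the most reduced distance had low IL-4 levels in all 3 genotypes. Ifit1bl1, of the IFIT family, was at 19.6, 1.33, 4.74, 1.64 and 1.44 TPM in the LPS cultures of the KO, and averaged 416 ± 191 TPM with LPS in WT and 236 ± 236 in HET (KO minus WT difference -6.43 ± 0.61, adjusted p = 3e-10; KO minus HET -5.00 ± 0.61, adjusted p = 1.37e-07). Slfn4 and Slfn1, of the interferon-induced Schlafen family, were at 12.7, 0.708, 5.23, 1.7 and 1.17 and 31.4, 0.894, 12.8, 3.82 and 4.13 TPM in the KO with LPS and averaged 232 ± 90.9 and 263 ± 35.9 in WT. In each of these 3 genes LPS culture 1 was the highest of the KO and still far below the WT mean. Cxcl10, which attracts T cells, was at 292, 13.4, 82, 19.2 and 9.58 TPM in the KO with LPS and averaged 1676 ± 608 in WT and 1138 ± 679.7 in HET (-5.36 ± 0.74 and -4.66 ± 0.74). Ccl7 averaged 20.2 ± 26.3 TPM with LPS and 13 ± 4.64 with IL-4 in the KO, against 637 ± 234 and 13.3 ± 3.77 in WT, so that no distance between the states passed the test in the KO (-5.57 ± 0.65 against WT). Nos2 averaged 892 ± 490.3 TPM with LPS in WT, 458 ± 405 in HET and 18.2 ± 13 in the KO (-5.54 ± 0.57 and -4.43 ± 0.57). Ms4a4c, of the MS4A membrane protein family (-5.70 ± 0.76 against WT), and H2-Q6 (-5.40 ± 0.37, uncertain as above) completed the 8.

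**Figure D4:**
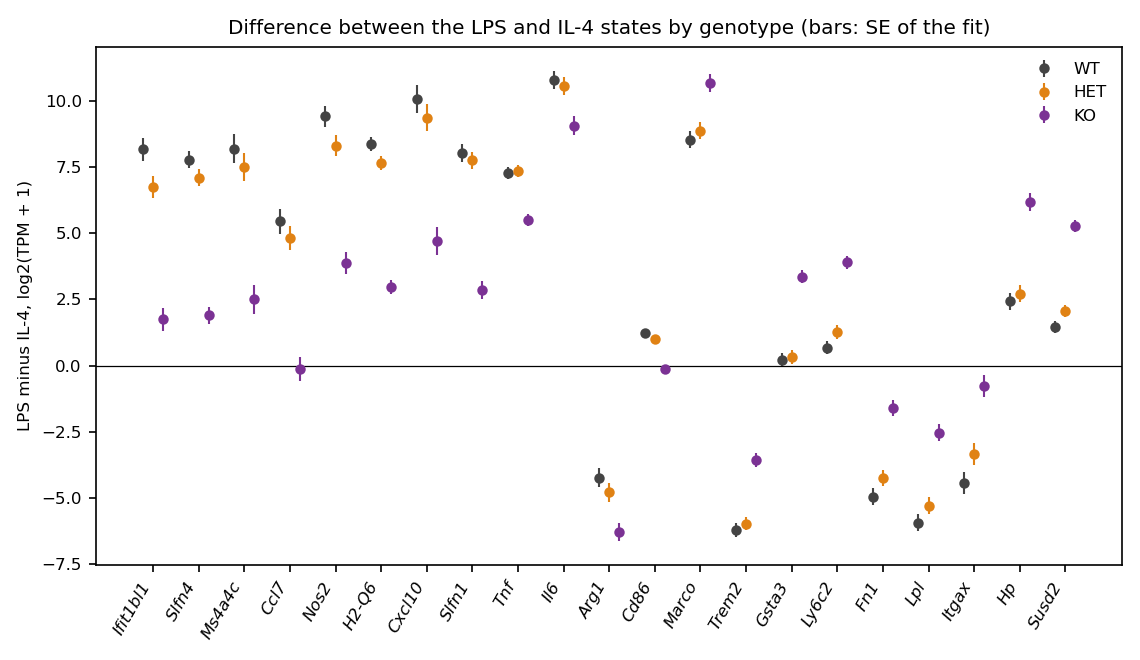
LPS minus IL-4 difference on the log2(TPM + 1) scale in WT, HET and KO cultures for 21 genes; bars are the SE of the fit. KO points lie far below those of WT and HET for the 8 genes on the left and above them for the 7 on the right; Ccl7 and Cd86 lie near 0 in the KO.

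Genes with a difference shifted upward belonged to 2 kinds. Susd2, a membrane protein, Gsta3, a glutathione transferase, Ly6c2, a monocyte surface antigen, and Hp were higher in LPS in the KO: Susd2 was at 18.2, 54.1, 32.5, 90.1 and 45 TPM and Hp at 145, 220.5, 137, 141 and 80.1 TPM in its LPS cultures, against WT means of 2.06 ± 0.765 and 6.63 ± 3.3 (KO minus WT 3.80 ± 0.32 and 3.76 ± 0.47; KO minus HET 3.20 ± 0.32 and 3.48 ± 0.47). Ly6c2 was at 24.1, 23.3, 19.5, 10.8 and 4.1 TPM and listed at 0 in every IL-4 and untreated culture of the KO. Gsta3 was at 4.38, 20.2, 3.99, 20.7 and 18.9 TPM. Others were higher in IL-4 with a smaller distance in the KO, their mean LPS levels being above those of WT: Fn1, fibronectin, averaged 289.6 ± 96.7 TPM with LPS in the KO and 24.2 ± 11.6 in WT, but 873 ± 220.4 and 759 ± 284 with IL-4. Lpl, lipoprotein lipase (286 ± 170.3 and 24.6 ± 13.3 with LPS), had the same form. Itgax, the integrin CD11c, averaged 137 ± 103 and 5.25 ± 2.44 TPM with LPS in the KO and WT. For Itgax the states did not differ past the test in the KO (adjusted p = 0.0998).

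Among the textbook genes of the 2 states, the distance was smaller in the KO for Tnf (-1.80 ± 0.32 against WT, -1.87 ± 0.32 against HET) and Cd86 (-1.38 ± 0.22 and -1.15 ± 0.22). Il6 was below as well (-1.73 ± 0.50, adjusted p = 0.0122; -1.50 ± 0.50, adjusted p = 0.0409), but against HET the call was lost when any of 15 libraries was left out singly (adjusted p from 0.0523 to 0.107), and with a pseudocount of 0.1 both were lost (adjusted p = 0.181 and 0.512). Il1b did not pass (adjusted p = 0.701 and 0.839). Arg1 was further apart in the KO (-2.05 ± 0.50 against WT, adjusted p = 0.00259; -1.49 ± 0.50 against HET, adjusted p = 0.0424): its LPS mean was 77.5 ± 34.6 TPM in WT and 57.6 ± 31.8 in HET, and its IL-4 mean 1319.5 ± 288 and 1419 ± 305. The HET call for Arg1 was lost when any 1 of 14 libraries was left out (adjusted p from 0.0538 to 0.118) and under each scaling (adjusted p = 0.053 and 0.0637). Mrc1 was closer together in the KO (1.89 ± 0.41 and 1.58 ± 0.41), as was Trem2 (2.64 ± 0.36 and 2.40 ± 0.36), with LPS means of 1.17 ± 0.408 and 12.6 ± 7.7 TPM in WT. Marco was further apart (2.14 ± 0.47 and 1.79 ± 0.47; 541 ± 128 TPM with LPS in WT), without a call at a pseudocount of 0.1 (adjusted p = 0.334 and 0.297). Retnla, Chil3, Ccl17, Ccl22, Il4ra and Tlr4 passed neither test (adjusted p from 0.0995 to 0.673 against WT). A block for the replicate number within each genotype did call Ccl17 against WT (1.88, adjusted p = 0.0436). Stat6 passed against WT alone (-0.36 ± 0.12, adjusted p = 0.0295), a call lost when any 1 of 5 libraries was left out and under both other scalings (adjusted p = 0.0867 and 0.228).

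Markers of other cell types were read as lists. Their sums were tested on TPM as deposited and not under another scaling. The shift of most TPM between the 2 states therefore enters these sums and their p-values. Microglia and macrophage markers summed to 7450.5 to 8339 TPM with LPS and 10576 to 12404 TPM with IL-4 (exact permutation p = 0.00794, adjusted 0.0132), with 2 of 10 higher in LPS, among them Fcer1g (2799 ± 271 against 1058 ± 126) and Itgam (755 ± 71.6 against 304 ± 45.1), and 5 in IL-4, among them Cd68 (503 ± 95.5 against 1839.6 ± 202) and Laptm5 (551 ± 43.3 against 1184 ± 106). With median of ratios the counts were 5 and 4. All 10 were above 0 in each of the 10 libraries. Border macrophage and monocyte markers summed to 1943 to 3028 with LPS and 521 to 741 with IL-4 (adjusted exact permutation p = 0.0132). Of 7 tested, 3 were higher in LPS, led by Clec4n and Pf4 (1006 ± 217 against 90.3 ± 32), and 3 in IL-4, led by Mrc1. Over all genes 12.1% were higher in LPS and 54.3% in IL-4 with TPM, and nothing is read from the counts of either list.

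Markers of neurons (43.2 to 110.3 TPM with LPS, 111 to 255 with IL-4), astrocytes (78.9 to 154 and 109 to 318) and the oligodendrocyte lineage (209 to 744 and 501 to 1894) were lower with LPS, with adjusted exact permutation p of 0.0132, 0.0298 and 0.0353. The oligodendrocyte call was lost (exact permutation p = 0.0635) without LPS culture 4 or 5 or without IL-4 culture 1, 2, 3 or 4, each left out alone. Of their tested members 7 of 11, 6 of 10 and 9 of 14 were higher in IL-4 (6, 5 and 3 with median of ratios), and 0, 1 and 0 in LPS (0, 2 and 0). Over all genes 54.3% were higher in IL-4 (25.8% with median of ratios), so the first shares are near the background and nothing is read from these counts. Map2 (34.5 ± 15.1 against 96.8 ± 28), S100b (20.6 ± 11.6 against 61.7 ± 36.4) and Olig1 (116 ± 39.4 against 311 ± 101) were among those higher in IL-4. Vascular and stromal markers summed to 12.1 to 24.3 with LPS and 111 to 162 with IL-4, most of the latter being Flt1, with 2 and 2 of 10 called. Markers of T, B and mast cells summed to 3.14 to 8.42 and 7.71 to 26.3, and 1 of them was tested. The part of other cells in the differences above was not tested.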

How the data were processed

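The authors deposited a table of TPM (transcript abundance scaled by length to a fixed total) per gene for 44 untreated, LPS and IL-4 libraries, made from 300 ng of RNA each (mRNA library kit, per the labels' protocols). Per the submitters' processing notes, FastQC, Trimmomatic, DRAGEN and Picard were used with mm10. Versions, annotation, strand setting and counting rule are not given in the sources used here, and reads from overlapping genes or near-identical copies may be shared. TPM carry no depth, so no count test was possible.

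The 15908 of 32070 genes that reached 1 TPM in 4 or more libraries were fitted as log2(TPM + 1) with a mean per group over all 9 groups in limma 3.58.1 (R 4.3.3; lmFit, eBayes with a trend), adjusted by Benjamini-Hochberg and called at 0.05. The pseudocount of 1 understates differences of low genes, and TPM are relative, so median-of-ratios scaling and quantile normalization were run beside them. Library summaries were compared by exact two-sided permutation tests (scipy 1.17.1). The fit was tested on simulated data.

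Named genes were Tbk1, Cx3cr1, the 14 highest and 14 lowest called genes with non-overlapping groups, up to 3 called members of each of 41 lists each way (at least 5 TPM in the higher group), the 8 highest and 8 lowest differences from WT that were also called against HET, and 14 textbook genes; not all are printed, and some are not reported here. Members and lists were chosen with earlier results of these data known. Other alternatives were a pseudocount of 0.1, no filter, only the groups compared, a block for the replicate number within each genotype and leaving out each library.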

Additional observations from a re-analysis of the deposited data

Results flagged for a closer look

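In 290 groups of 5 libraries (the named genes that reach 5 TPM, and the library summaries), 12 had 1 library set apart from the other 4 by Dixon's test at the 95% level, and chance alone flags about 1 group in 20. IL-4 culture 5 accounted for 5 of them, being the highest for Tlr4 (45.6, the others 33.2 to 35.4), Pfkl (34.7, the others 23.4 to 25.9), Steap3 (19.8, the others 11.5 to 12.3) and Gpnmb (2697, the others 1558 to 1709.8), and the lowest for Cx3cr1 (229, the others 298 to 322) (values in TPM). Tlr2 was lowest in IL-4 culture 2 (17.4 TPM, the others 21 to 22.6). Il2rg was lowest in LPS culture 2 (208 TPM, the others 249 to 263). Havcr2 was highest in IL-4 culture 4 (90.2 TPM, the others 67.5 to 72.8). Rrm2 was lowest in IL-4 culture 4 (14.8 TPM, the others 27 to 32.2). Fcer1g was highest in LPS culture 1 (3271 TPM, the others 2629 to 2789). Fn1 was lowest in IL-4 culture 3 (479.5 TPM, the others 958 to 991). The summed TPM of T, B and mast cell markers was highest in IL-4 culture 4 (26.3 TPM, the others 7.71 to 12.6). 

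For 15 named genes the LPS minus IL-4 difference is compared between genotypes (interaction term in limma, log2 scale). They were named because it was called against both WT and HET, so their passing follows from that choice. Other named genes, among them Tnf and Trem2, differed as well and are given above. Against WT the LPS minus IL-4 difference was lower in the KO for Ifit1bl1 (-6.43), Slfn4 (-5.88), Ms4a4c (-5.70), Ccl7 (-5.57), Nos2 (-5.54), H2-Q6 (-5.40), Cxcl10 (-5.36) and Slfn1 (-5.16), and higher for Susd2 (3.80), Hp (3.76), Itgax (3.69), Lpl (3.40), Fn1 (3.36), Ly6c2 (3.23) and Gsta3 (3.16). Against HET, where both genotypes carry Cre, the values were Ifit1bl1 (-5.00), Slfn4 (-5.20), Ms4a4c (-5.00), Ccl7 (-4.94), Nos2 (-4.43), H2-Q6 (-4.68), Cxcl10 (-4.66) and Slfn1 (-4.89), and Susd2 (3.20), Hp (3.48), Itgax (2.59), Lpl (2.76), Fn1 (2.66), Ly6c2 (2.63) and Gsta3 (3.04). Adjusted p-values of these 30 contrasts ran from 1.15e-13 to 0.00182. In LPS culture 1 of the KO, 7 of the 8 lowered genes had at least 2 times the value of any other LPS culture of the KO.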

How the results depend on the processing

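The scale decided how the called genes split. For LPS minus IL-4 in the KO, 1925 higher and 8643 lower became 4321 and 4109 when scaled by median of ratios, 3484 and 4612 after quantile normalization, and a 2-fold minimum left 872 and 2452; single left-out libraries gave 1842 to 1949 and 7951 to 8895. LPS minus untreated went from 2085 and 8993 to 4669 and 4629, and to 3744 and 5220. Rela and Rel turned from the IL-4 side to 0.185 and 0.017 with median-of-ratios scaling. Of 162 genes followed, no call of LPS minus IL-4 was lost when single libraries were left out. The summed oligodendrocyte markers (difference -655.8 TPM) ranged from -815.7 to -467.5 and lost the call (exact permutation p = 0.0635) when any 1 of 6 libraries was left out.

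The main fit did not pair cultures by replicate number. Same-number LPS and IL-4 libraries correlated at 0.090 to 0.342 in their deviations from group means, and other numbers at -0.047 on average. Each of the 10 libraries correlated best with its own number. The rule used asked for all same-number values above 0.1, so the block was kept as an alternative, and the main fit may ignore a pairing that exists. For LPS minus IL-4 in the KO, the replicate block gave 2050 higher and 9362 lower. With a replicate block, genes above and below in the KO minus WT difference went from 1250 and 1243 to 2107 and 1613, in KO minus HET from 885 and 932 to 1476 and 1309, and in IL-4 minus untreated from 856 and 482 to 1238 and 1297. With the block and only the groups compared, chosen after seeing the data, IL-4 minus untreated gave 1659 and 2264. The cause of these shifts was not tested. Depth is unknown and limits low genes.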
